A study of Mus musculus with 2 samples.

Results

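Calmodulins, *Pcp4* and a group of calcium-binding proteins were followed in hippocampal Cajal-Retzius (CR) cells at P14. The set held 9 of the 32285 genes counted, taken by exact symbol: *Calm2*, *Calm3*, *Pcp4*, *Pcp4l1*, *Nrgn*, *Calb1*, *Calb2*, *Hpca* and *Ncald*. Each was measured in barcodes with at least 2000 UMIs (unique molecular identifiers, here counted transcripts) and at least 5 *Reln* UMIs, called *Reln* barcodes below. Levels are given as CPM, the UMIs of a gene per 1000000 UMIs outside mitochondrial and ribosomal protein genes. Since the assay counts 3′ ends, levels of different genes were not scaled by length, and only levels of the same gene were compared.

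Calmodulin is the general calcium sensor of eukaryotic cells: it binds calcium ions through EF-hand loops and then docks on kinases, phosphatases and channels. In mammals the same protein is made from several separate genes. PCP4 and neurogranin are small neuronal proteins whose IQ motif binds calmodulin, and PCP4L1 is the paralog of PCP4. Calbindin and calretinin buffer calcium directly, whereas hippocalcin and neurocalcin move to membranes when calcium rises. Calretinin, the product of *Calb2*, is a classical marker of CR cells, the early-born reelin-secreting neurons of the marginal zone.

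There were 2 libraries, each made from the dissociated hippocampi of 4 pooled littermates and sorted for live tdTomato-positive cells. The control mice carried *ΔNp73-Cre*, 1 floxed and 1 intact copy of the transcriptional repressor gene *Cic*, and the *tdT* reporter (3 males and 1 female). The knockout mice carried the same Cre and reporter with both *Cic* copies floxed (2 males and 2 females). Both groups therefore carry the driver, the reporter and at least 1 floxed *Cic* copy, the driver removes *Cic* only in cells of the *ΔNp73* lineage, and the pools were not marked by mouse. With 1 library per genotype no test between genotypes was possible. Intervals given in parentheses are exact 95% intervals that cover counting error only, and genes are called higher or lower only from a ratio of at least 1.5-fold, which is a rule of size and not of significance.

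The control matrix held 16336796 UMIs and the knockout matrix 6777071. Of 1011 control and 406 knockout barcodes with at least 2000 UMIs, 1003 and 390 had 5 or more *Reln* UMIs, with a median of 6224 and 6664 UMIs. No barcode sequence was shared between these sets. The labels were checked with 8 CR cell markers, each found in 25% or more of the barcodes of either library and together at 15032 and 14559 CPM. *Reln* is among the 8 and was required by the selection, so its presence is no check. It made up 8176 and 7873 CPM of these sums. Lists for 12 other cell types stood at no more than 103 and 88.9 CPM, and the GABAergic list at 11.4 and 8.68 CPM. The astrocyte, oligodendrocyte precursor and mural lists each had 1 marker in 25% or more of the barcodes of either library. A single control barcode held 93 UMIs of the astrocyte list. *Lhx6*, *Sst* and *Vip* were at 0 in both. The other 4 GABAergic markers had 75 UMIs in the control, up to 12 in a single barcode, and 24 UMIs in the knockout. *Cic* itself was at 58.9 CPM in control and 51.3 CPM in knockout barcodes (ratio 0.871, 0.714 to 1.06). As 3′ ends outside the deleted exons would still be counted, this does not check the deletion.

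A subset of *Reln* barcodes was set apart by the share of UMIs from nuclear genes of the respiratory chain (98 genes of the *Nduf*, *Cox*, *Uqcr*, *Atp5* and *Sdh* families, none of them among the 9). This respiratory share was 1.8% or more in 83 control barcodes (8.28%, 6.64 to 10.2) and 34 knockout barcodes (8.72%, 6.11 to 12). These barcodes were deeper, with a median of 13502 and 14229.5 UMIs against 6064 and 6419.5 in the rest. They also held less of 6 nucleus-retained RNAs such as *Malat1* (3.4% and 3.59% against 7.47% and 7.45%) and less mitochondrially encoded RNA (1.89% and 2.29% against 3.17% and 3.88%). Whether these RNA shares have a part in the results was not tested. The calcium-binding genes were also read in barcodes of 20 to 100 UMIs, which hold too little RNA for a cell and mostly carry RNA free in the suspension. There were 29040 of them in the control (median 89 UMIs) and 75813 in the knockout (median 44 UMIs).

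*Pcp4* (ENSMUSG00000090223) lies on chromosome 16 of GRCm38 from 96467606 to 96525793, *Calm2* (ENSMUSG00000036438) on chromosome 17 from 87433412 to 87446935, *Calm3* (ENSMUSG00000019370) on chromosome 7 from 16915379 to 16924114 and *Calb2* (ENSMUSG00000003657) on chromosome 8 from 110137502 to 110168210. *Hpca* lies on chromosome 4 from 129111570 to 129122036 and overlaps *Tmem54* on the opposite strand, and *Ncald* lies on chromosome 15 from 37366175 to 37792570 and overlaps 5 other counted genes, so that counts of these genes are uncertain. The others overlap no counted gene. The longest transcripts of *Calm2* and *Calm3* share none of their stretches of 31 bases, and neither do those of *Pcp4* and *Pcp4l1*, so reads from one are unlikely to be counted for the other.

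The start regions of *Pcp4* and *Calm3*, which stood high in the same barcodes, are shown because their base composition differs widely. Both are RefSeq sequences of GRCm38.p6 from 250 bases before to 50 bases after the annotated start, written 5′ to 3′ on the gene's own strand, with *Pcp4* at chr16:96467356-96467655 on the plus strand and *Calm3* at chr7:16923983-16924282 on the minus strand. Capitals mark a CCAAT box in *Pcp4*, read as its complement ATTGG after the start, and a GC box (GGGCGG) in *Calm3*.
Pcp4: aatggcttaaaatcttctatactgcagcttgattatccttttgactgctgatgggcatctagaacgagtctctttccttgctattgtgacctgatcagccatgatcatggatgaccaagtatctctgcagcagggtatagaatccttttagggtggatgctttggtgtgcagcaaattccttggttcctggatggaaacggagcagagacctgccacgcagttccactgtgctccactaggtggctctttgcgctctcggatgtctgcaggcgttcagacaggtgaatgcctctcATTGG
Calm3: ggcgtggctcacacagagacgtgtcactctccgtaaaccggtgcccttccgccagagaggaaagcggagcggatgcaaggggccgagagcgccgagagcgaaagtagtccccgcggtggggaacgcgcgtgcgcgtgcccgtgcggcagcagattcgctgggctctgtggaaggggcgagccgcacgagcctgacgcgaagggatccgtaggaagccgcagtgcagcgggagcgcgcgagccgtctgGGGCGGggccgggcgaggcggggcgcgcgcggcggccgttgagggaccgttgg
The *Pcp4* window held 6 CpG dinucleotides and 48.7% G and C, the *Calm3* window 44 and 72%, against medians of 7 and 52.7% over 32851 windows. On either strand, a CCAAT box occurs in 37.4% of all windows and a GC box in 35.7%. *Calm2*, *Calb1*, *Calb2* and *Ncald* had no window and were not searched. Windows were given for the other 5 of the 9 genes (7 windows). None held the respiratory factor core GCGCATGC, which is in 2.71% of all windows and 13.8% of 87 windows of the respiratory genes, and none held an octamer bound by capicua (TGAATGAA, TGAATGGA, TCAATGAA or TCAATGGA), which is in 3.84% of all.

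**Figure D1:**
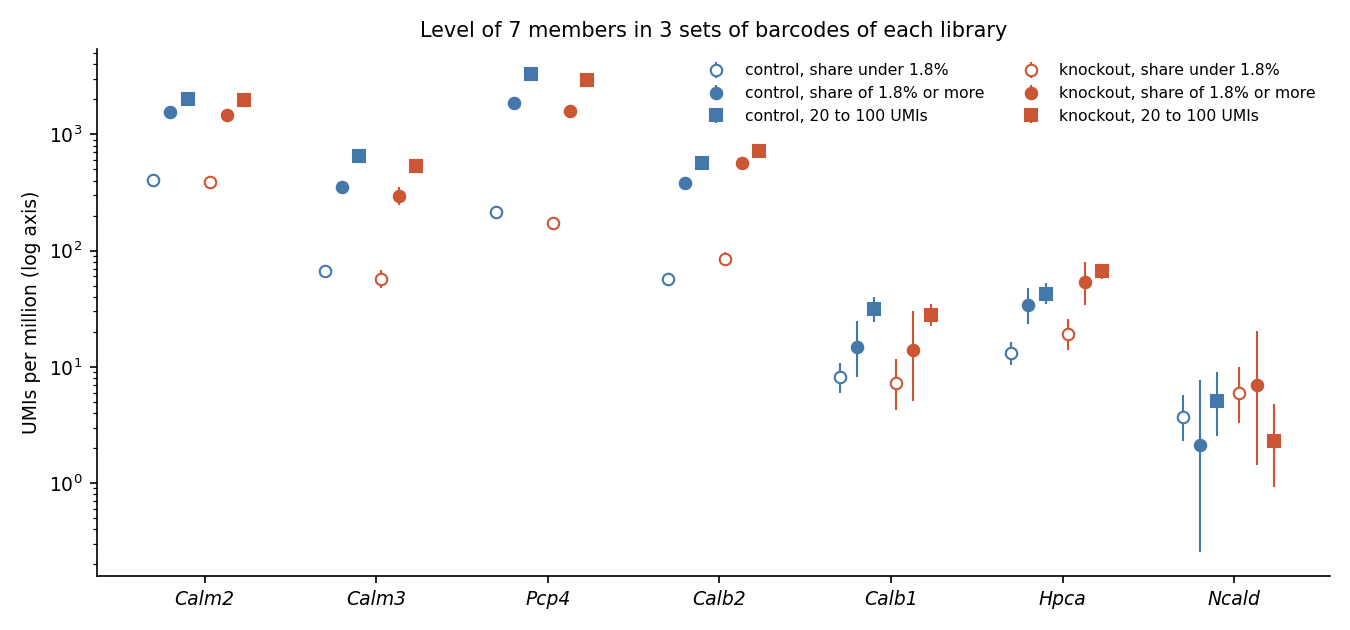
CPM on a log axis for 7 of the genes in each library, in *Reln* barcodes with a respiratory share under 1.8% (open circles), of 1.8% or more (filled circles) and in barcodes of 20 to 100 UMIs (squares), with exact 95% counting intervals. *Calm2*, *Calm3*, *Pcp4* and *Calb2* stand in the same order of the 3 sets in both libraries, while the intervals of *Ncald* overlap.

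Among the calmodulin genes, *Calm2* was at 1558 CPM (1479 to 1639) in control barcodes with a respiratory share of 1.8% or more and at 402 CPM (386 to 419) in those with less. In the knockout it was at 1482 CPM (1369 to 1601) and 393 CPM (368 to 419). The intervals of the 2 subsets lay far apart in each library, and those of the 2 libraries overlapped within each subset. The ratio was 3.87 (3.62 to 4.14) for control and 3.77 (3.4 to 4.18) for knockout barcodes.

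*Calm3* encodes the same protein from another chromosome. It was at 353 CPM against 66.6 CPM in the control. In the knockout it was at 294 CPM against 57.4 CPM. Its ratio was 5.30 (4.56 to 6.15) and 5.12 (3.99 to 6.58), above that of *Calm2* in both libraries. Both genes were thus higher in the same barcodes.

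Among the proteins that bind calmodulin through an IQ motif, *Pcp4* had the largest ratio of the 9 genes. It was at 1854 CPM (1768 to 1943) against 216 CPM (204 to 228) in the control, and at 1597 CPM (1480 to 1721) against 174 CPM (158 to 192) in the knockout. The ratios were 8.59 (7.98 to 9.25) and 9.16 (8.09 to 10.4). Of the 8304 genes with at least 100 UMIs in the 2 control subsets, 0.301% had a ratio as large as that of *Pcp4*, and in the knockout 0.383% of 5226 genes.

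*Pcp4l1*, the paralog of *Pcp4*, and *Nrgn*, which encodes the calmodulin-binding postsynaptic protein neurogranin, were almost not counted in these cells. *Pcp4l1* had 3 UMIs in each library. *Nrgn* had 5 in the control and 1 in the knockout. No ratio between the subsets can be given for either. *Nrgn* is abundant in mature forebrain projection neurons. The pyramidal neuron list was low as well (66.2 and 75.9 CPM in all), and the part of such neurons in the few *Nrgn* UMIs was not tested.

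Among the calcium buffers, *Calb2* was at 384 CPM (345 to 425) in control barcodes with a respiratory share of 1.8% or more and at 56.7 CPM (50.7 to 63.3) in the rest. In the knockout it was at 563 CPM (494 to 638) and 84.8 CPM (73.4 to 97.5). Its ratio was 6.76 (5.80 to 7.88) and 6.63 (5.47 to 8.04), the nearest to that of *Pcp4*. *Calb1*, which encodes calbindin, had only 60 and 23 UMIs. It was at 14.8 against 8.13 CPM in control and 13.9 against 7.28 CPM in knockout barcodes, where 6 UMIs from 2 barcodes made up the higher value. These intervals overlapped, and the ratios of 1.82 (0.926 to 3.38) and 1.91 (0.616 to 5.07) could not be told from 1 at this depth.

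The membrane-binding sensors were low. *Hpca*, which encodes hippocalcin, was at 33.9 CPM (23.2 to 47.9) against 13.1 CPM (10.3 to 16.4) in the control. In the knockout it was at 53.2 CPM (33.8 to 79.9) against 19.3 CPM (14.1 to 25.8). The intervals of the subsets did not overlap, with ratios of 2.59 (1.66 to 3.98) and 2.76 (1.59 to 4.66). *Ncald*, which encodes neurocalcin delta, rested on 2 and 3 UMIs in the subset with the higher share, and its ratios of 0.571 (0.0649 to 2.34) and 1.16 (0.213 to 4.15) have no direction. Markers of granule neurons, which contain both calbindin and hippocalcin, were at 44.5 against 25.1 CPM in control and 23.2 against 35.1 CPM in knockout barcodes, and their part in the values of *Calb1* and *Hpca* was not tested.

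In the control, 6 of the 7 genes with enough UMIs for a ratio were at least 1.5-fold higher where the respiratory share was high and 1 (*Ncald*) was lower, beside 24.6% and 27.7% of all genes with at least 100 UMIs. In the knockout, 6 of 7 were higher and 0 lower, beside 21.7% and 25.4%. With 100 UMIs or more, as for all genes, 5 of 5 members were higher in the control and 4 of 4 in the knockout. The genes had been chosen with this pattern known, so the counts describe them and are no further support for it. Over all genes the median ratio was 0.896 for the control and 0.885 for the knockout (-0.16 and -0.18 on the log2 scale). For the members with 100 UMIs or more, it was 5.30 over 5 control and 5.88 over 4 knockout values. Scaling by the median gene would raise each ratio by the same factor.

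**Figure D2:**
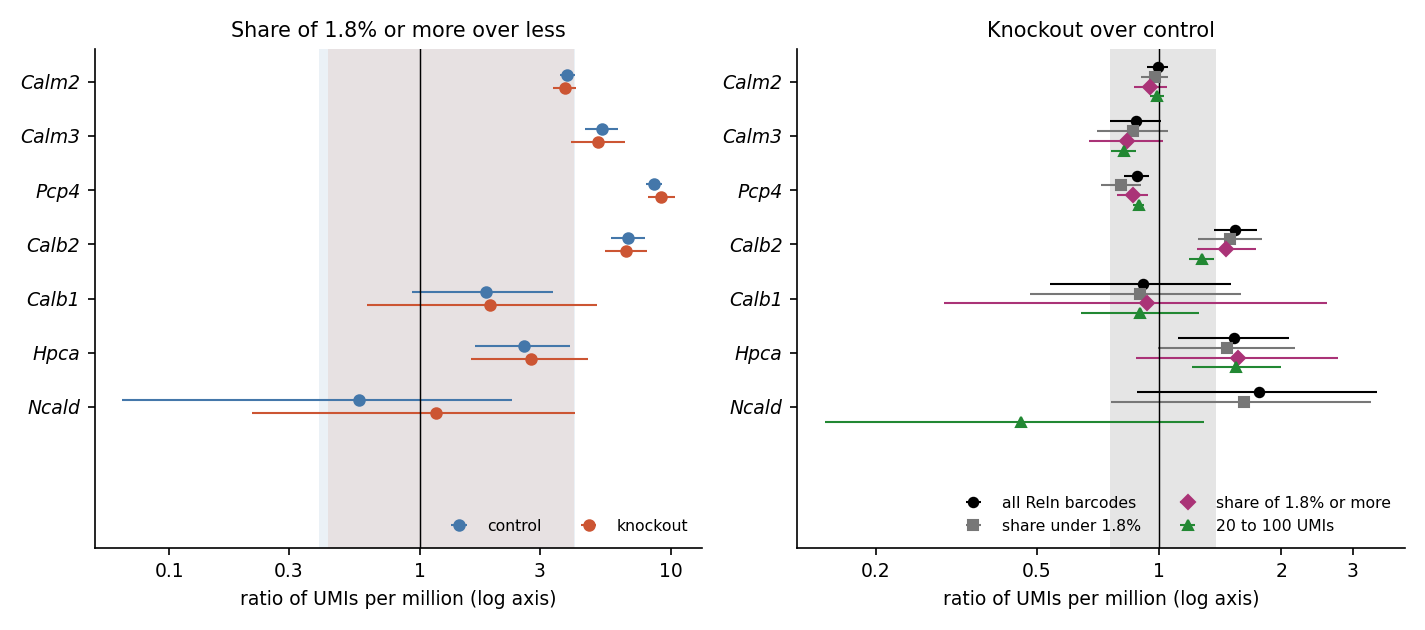
Left, ratio of CPM in *Reln* barcodes with a respiratory share of 1.8% or more to that in the rest, per library; right, ratio of knockout to control in 4 sets of barcodes, all on log axes with exact 95% counting intervals. Shading spans the 5th to the 95th percentile of all genes with at least 100 UMIs; *Pcp4*, *Calm3* and *Calb2* lie beyond it on the left in both libraries, and *Calb2* and *Hpca* lie to the right of 1 in every set of the right panel. *Ncald* has no knockout ratio at a share of 1.8% or more, for lack of UMIs.

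The step between the subsets was followed over 6 intervals of the respiratory share. In the control, *Pcp4* was at 176, 190, 233 and 324 CPM in barcodes with a share under 0.5%, from 0.5 to 0.8%, from 0.8 to 1.1% and from 1.1 to 1.8%. It then reached 1405 CPM from 1.8 to 2.5% and 2178 CPM above that. Knockout values in the same order were 120, 173, 154, 265, 1335 and 1774 CPM. In both libraries the largest step between neighbouring intervals was the one across the threshold, and the level rose further above it. *Calm2* moved from 309 to 503 CPM over the 4 lower intervals of the control and then to 1423 and 1655 CPM, and *Calb2* from 40.9 to 93.0 CPM and then to 397 and 374 CPM. *Reln*, which is no member, went the other way, from 8375 CPM in the last interval below the threshold to 6389 and 5358 CPM above it.

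The values nearest to the threshold were as follows. The 10 control barcodes just below it (1.58 to 1.79%) held 279 CPM of *Pcp4* and the 10 at or just above it (1.82 to 2.02%) held 982 CPM. In the knockout the values were 385 CPM (1.47 to 1.73%) and 1329 CPM (1.82 to 2.12%). For *Calm2* these were 574 and 1274 CPM in control barcodes and 552 and 1321 CPM in knockout barcodes. *Calb2*, in contrast, was at 279 CPM just below and 188 CPM just above for control barcodes, and at 50.2 and 182 CPM for knockout barcodes.

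**Figure D3:**
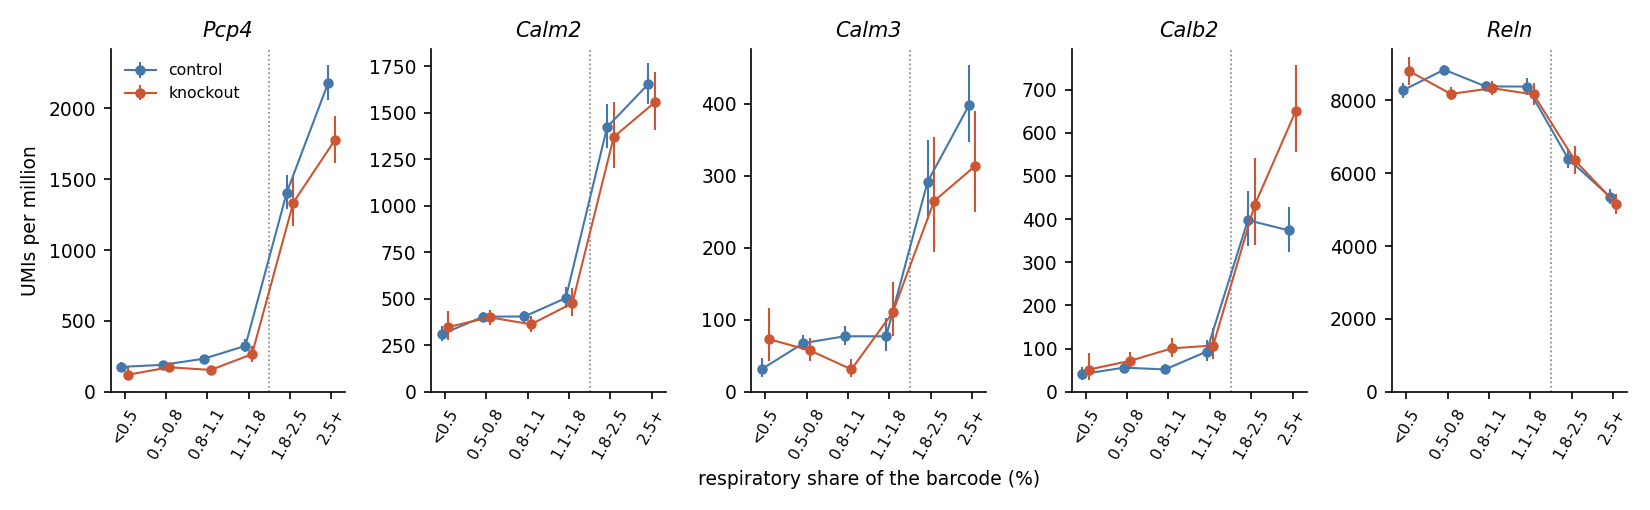
CPM of 4 of the genes and of *Reln* in 6 intervals of the respiratory share of a barcode (percent of UMIs), with exact 95% counting intervals and the 1.8% threshold as a dotted line. Between the intervals on either side of the threshold, the 4 genes step up in both libraries and *Reln* steps down. In the barcodes nearest to the threshold, control *Calb2* did not step up.

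Depth differed between the subsets, so levels were also compared between barcodes of nearer depth. Among control barcodes of 8000 to 15000 UMIs with a high respiratory share (39 barcodes), *Pcp4* was at 1872 CPM and *Calm2* at 1494 CPM. Among those with 8000 UMIs or more and a share under 1.8% (177 barcodes), they were at 236 and 443 CPM. In the 17 control barcodes with a high share but under 8000 UMIs, *Pcp4* was at 1470 CPM, *Calm2* at 1222 CPM and *Calb2* at 124 CPM (49.8 to 255). In the knockout, the 10 barcodes of 8000 to 15000 UMIs with a high share held 2330 CPM of *Pcp4* and the 92 deep barcodes with a low share held 167 CPM. Among deep barcodes the separation was thus present for *Pcp4* in both libraries and for *Calm2* in the control. The depth ranges were not the same on both sides, and the shallow barcodes were not set against low-share ones of their depth. In the control, *Calb2* was lower in the shallow barcodes of the high subset than in the deeper ones.

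For *Pcp4*, *Calm2*, *Calm3* and *Calb2*, shares of barcodes with a UMI told the same. A *Pcp4* UMI was found in 81 of 83 control barcodes with a high respiratory share (97.6%) and in 560 of 920 others (60.9%). After each barcode was thinned to 2000 UMIs, which left none out, the shares were 85.5% (76.1 to 92.3) and 32.2% (29.2 to 35.3). In the knockout the thinned shares were 88.2% (72.5 to 96.7) and 30.6% (25.9 to 35.7). *Calb2* was in 37.3% (27.0 to 48.7) and 9.67% (7.84 to 11.8) of thinned control barcodes and in 35.3% (19.7 to 53.5) and 14.9% (11.4 to 19.0) of thinned knockout barcodes. For *Calm3* the thinned control shares were 45.8% and 12%, and for *Calm2* 94.0% and 51.5%. The thinned shares of *Hpca* overlapped in the control, at 3.61% (0.752 to 10.2) and 2.07% (1.25 to 3.21). In the knockout they were 17.6% (6.76 to 34.5) and 3.93% (2.17 to 6.51). As a background, in barcodes of 20 to 100 UMIs a *Pcp4* UMI was in 19.9% of control and 9.61% of knockout barcodes, at a median of 89 and 44 UMIs.

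The genes differed in how evenly they were spread over the barcodes of the high subset. *Pcp4* had a median of 23 UMIs in the control, with quartiles of 8 and 30, and of 20.5 in the knockout, with quartiles of 7.25 and 27.5. *Calm2* was as even, with a median of 19 (quartiles 10 and 24.5) and of 20.5 (8.5 and 30). *Calb2* was not: its median was 1 UMI in the control, and 31 of 83 barcodes had none. Its 13 barcodes with 10 or more UMIs held 56.9% of its UMIs. In the knockout the median was 3.5, 13 of 34 barcodes had none, and 11 barcodes with 10 or more UMIs held 84.0%. Barcodes with 10 or more UMIs thus made up 71.1% and 67.6% of the control and knockout subsets for *Pcp4*. They made up 75.9% and 73.5% for *Calm2* and 15.7% and 32.4% for *Calb2*. The same cut was used for genes of unlike level, and the part of level in this contrast was not tested.

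**Figure D4:**
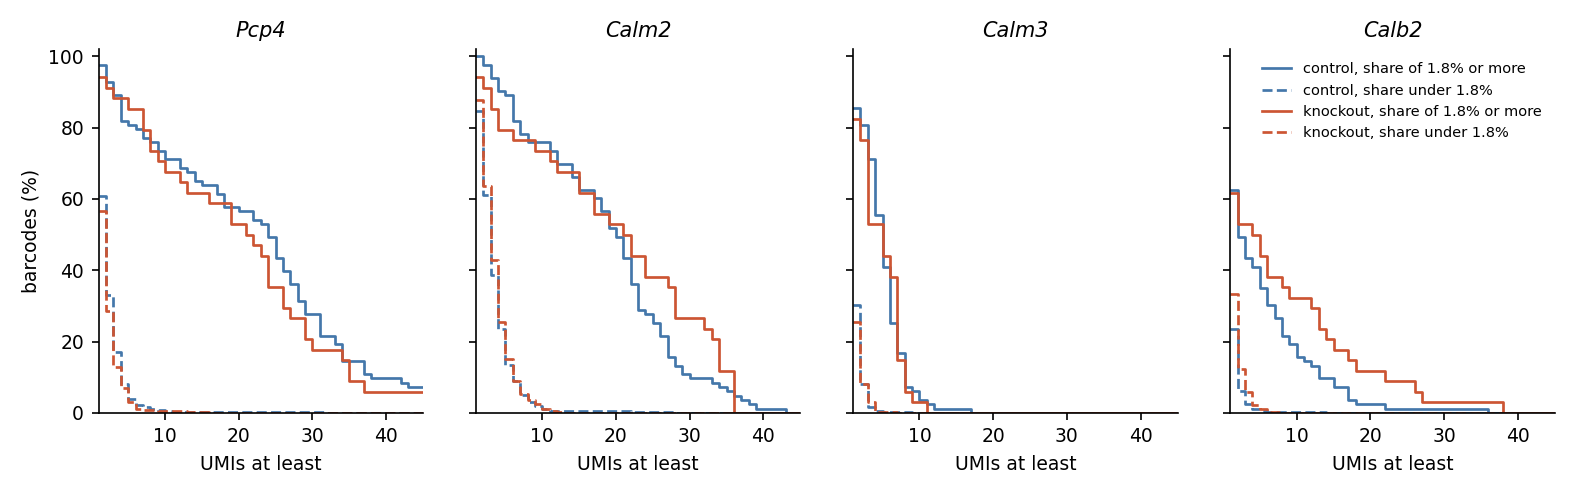
Percent of barcodes (vertical axis) with at least the number of UMIs on the horizontal axis for 4 of the genes, by library and respiratory share. In the subset with the higher share (solid lines), 71.1% of control barcodes had 10 or more *Pcp4* UMIs and 15.7% had 10 or more *Calb2* UMIs.

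Within the subset with a low respiratory share, *Pcp4* and *Calm2* were not seen to go together. After thinning, *Calm2* was found in 50.5% (46.5 to 54.5) of the 624 control barcodes without a *Pcp4* UMI, in 55.3% (48.4 to 62.0) of 217 with 1 and in 49.4% (37.9 to 60.9) of 79 with 2 or more. The intervals overlapped, and since free RNA may supply a large part of *Pcp4* in these barcodes, little can be read from this. In the knockout these shares were 54.3% of 247, 53.9% of 89 and 50% of 20 barcodes. For *Calb2* they were 9.46%, 11.1% and 7.59% in the control.

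Free RNA held more of most of these genes than the cells did. In the control, barcodes of 20 to 100 UMIs held *Pcp4* at 3282 CPM against 450.0 CPM in all *Reln* barcodes, *Calm2* at 1998 against 567 CPM, *Calm3* at 648 against 108 CPM and *Calb2* at 566 against 103 CPM. The ratios were 7.29 (6.99 to 7.61), 3.52 (3.37 to 3.68), 6.02 (5.5 to 6.60) and 5.47 (4.98 to 6.01). In the knockout they were 7.38 (6.93 to 7.86), 3.5 (3.31 to 3.71), 5.61 (4.92 to 6.42) and 4.53 (4.08 to 5.03). *Reln* ran the other way, at 0.117 and 0.112 times its level in the cells. *Calb1*, at 31.2 against 9.09 CPM and 28.0 against 8.32 CPM, and *Hpca*, at 42.7 against 16.1 CPM and 66.1 against 24.6 CPM, were also higher in free RNA.

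In all, 7 of 9 genes in control and 8 of 9 in knockout barcodes were at least 1.5-fold higher in free RNA, beside 32.7% and 35.8% of all genes. These counts include *Pcp4l1*, with 4 and 17 UMIs in free RNA, and in the knockout *Nrgn*, with 14. With 100 UMIs or more, as for all genes, 6 of 6 were higher in each library. Of the 9, *Ncald* was the exception in the knockout, at 2.30 against 6.15 CPM (ratio 0.375, 0.131 to 0.951). *Calb2* and *Hpca* were thus high both in free RNA and in cells with a high respiratory share, as *Pcp4* and the calmodulins were. The respiratory share of free RNA itself was 4.61% and 4.44%. In the control, nearly all of these barcodes (28319) had 51 or more UMIs, and over the 721 with 20 to 50 the ratio of *Pcp4* fell to 3.71.

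Free RNA limits what can be read from low levels in cells. A mean control droplet of 20 to 100 UMIs held 0.246 *Pcp4* UMIs, against 1.33 per barcode with a low respiratory share, or 18.6% of the count. As 78295 control barcodes held 20 to 300 UMIs, the window of 20 to 100 UMIs holds only the lower part of them, and this mean may be too low. In the knockout there were 76330, nearly all of them within 20 to 100 UMIs. If all 26 UMIs of the ependymal and choroid markers in these barcodes were free RNA, the amount of free RNA would account for 110% of their *Pcp4*, 36.0% of their *Calm2* and 72.4% of their *Calb2*. In the knockout the same bound was 56.5%, 16.9% and 28.6%. For barcodes with a high share it was 5.92%, 4.29% and 4.94% for control and 2.56%, 1.86% and 1.79% for knockout barcodes. These values rest on 2 control and 1 knockout marker UMIs, so they are loosely set and could be higher. A bound from a single gene, *Atp5e* in the control and *Dbi* in the knockout (chosen after seeing the data), allowed 69.7% and 74.2% of *Pcp4*, 22.7% and 22.2% of *Calm2* and 45.7% and 37.6% of *Calb2* at the low share. At the high share, a bound set in the same way by other genes was 17.8% and 4.82% of *Pcp4*. *Atp5e* belongs to the genes that form the respiratory share. Barcodes at the low share were thus selected for little of it, and its bound is not independent of the split. Both kinds of bound are meant as upper limits. Each was the lowest value over the lists of other cell types with at least 50, or the genes with at least 1000, UMIs in free RNA. Picked as lowest, a bound can lie too low through counting error. How much of the low *Pcp4* level is free RNA is thus not known.

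The proportions of the genes differed as well. Of the UMIs of *Pcp4*, *Calm2*, *Calm3*, *Calb2* and *Hpca* summed, those of *Pcp4* made up 28.6% (27.2 to 30.0) in control barcodes with a low respiratory share, 44.3% (42.8 to 45.9) in those with a high share and 50.2% (49.4 to 51) in free RNA. *Calm2* made up 53.3%, 37.2% and 30.6%. In the knockout, *Pcp4* made up 23.9%, 40.0% and 47.1%, and *Calm2* 53.9%, 37.1% and 31.7%. For *Pcp4* and *Calm2* the barcodes with a high share thus lay between the others in both libraries, nearer to free RNA. In point values, *Calb2* was largest at the high share, with 7.52%, 9.17% and 8.66% in the control and 11.6%, 14.1% and 11.6% in the knockout. *Calm3* was smallest there, with 8.83%, 8.44% and 9.91% and with 7.88%, 7.37% and 8.52%. For both genes the intervals at the low and the high share overlapped in each library, so these orders are not settled.

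The knockout was then compared with the control to ask whether the knockout genotype goes with other levels of these genes. The paper reports that this driver removed CIC, the protein, from most but not all hippocampal CR cells. Control cells can lose their floxed copy as well. The ratios thus set cells with 1 intact *Cic* copy against a mix of cells with and without CIC. In all *Reln* barcodes, *Calm2* was at 567 CPM for control and 563 CPM for knockout (ratio 0.992, 0.935 to 1.05), *Calm3* at 108 and 94.4 CPM (0.877, 0.758 to 1.01) and *Pcp4* at 450.0 and 397 CPM (0.881, 0.822 to 0.945). *Calb1* was at 9.09 and 8.32 CPM (0.915, 0.540 to 1.5). These 4 genes stayed within 1.5-fold. *Pcp4* had an interval below 1, but with 1 library of each genotype the difference cannot be told from a difference between libraries.

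*Calb2* was at 103 CPM (95.8 to 112) in control and 159 CPM (145 to 175) in knockout barcodes (ratio 1.54, 1.36 to 1.74), and *Hpca* at 16.1 and 24.6 CPM (1.53, 1.11 to 2.10). *Ncald* was at 3.48 and 6.15 CPM (1.76, 0.885 to 3.45), and *Nrgn* had 5 and 1 UMIs (0.477, 0.0101 to 4.27). With *Pcp4l1* not given a ratio, 4 of 8 genes were at least 1.5-fold apart, beside 4.40% of 9442 genes with at least 100 UMIs in either direction. Of the 5 members with that many UMIs, *Calb2* and *Hpca* were past 1.5-fold, and 2.17% and 2.34% of all genes had a ratio as large as theirs.

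Within the subsets the genotype ratios were as follows. Where the respiratory share was low, *Calb2* was at a ratio of 1.495 (1.25 to 1.79), just under the fold used, *Hpca* at 1.47 (0.994 to 2.16) and *Pcp4* at 0.808 (0.721 to 0.905). Here 1 of 7 genes (*Ncald*, 14 and 21 UMIs) was past 1.5-fold, beside 4.98% of 8848 genes. Where the share was high, *Calb2* was at 1.47 (1.24 to 1.73), *Hpca* at 1.57 (0.877 to 2.77) and *Pcp4* at 0.861 (0.788 to 0.941). In free RNA *Calb2* was at 1.28 (1.19 to 1.37) and *Hpca* at 1.55 (1.21 to 2.00). These barcodes were of unlike depth, with 28319 of 29040 at 51 to 100 UMIs in the control and 21373 of 75813 in the knockout. In them the ependymal and choroid list stood at 63.3 and 166 CPM and the CR list at 5105 and 5453 CPM. The part of either difference in the ratios was not tested. Barcodes that held 3 or more UMIs of another cell type's markers were also taken out, which left 843 and 311 barcodes. *Calb2* was then at 1.24 and *Hpca* at 1.40, and only *Ncald* stayed past 1.5-fold, at 1.67. Of the barcodes with a high share, 63 of 83 were kept in the control and 21 of 34 in the knockout. *Calb2* stood higher in such barcodes, and the part of this changed mix in its ratio was not tested. Without barcodes over 15000 UMIs *Calb2* was at 1.3. With free RNA subtracted at the marker bound, *Calb2* went to 2.02 in all *Reln* barcodes and 3.71 at the low share, *Calm3* to 1.17 and 1.93 and *Pcp4* to 1.28 in all, and no *Pcp4* was left in the control at the low share. Below 1 in the counts as given, *Pcp4* and *Calm3* were thus above 1 after this subtraction. In all *Reln* barcodes the bound took 6.70% of control but 3.06% of knockout UMIs, and rested on 28 and 14 marker UMIs. With the mean droplet subtracted instead, *Pcp4* stayed below 1. The part of the unequal amounts in the change of direction was not tested.

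The libraries differed in their numbers of males and females, and the *Calb2* excess lay in the knockout females. Barcodes with a UMI of a Y-linked gene and none of *Xist* were read as male (702 control and 194 knockout) and the reverse as female (227 and 176), whereas 16 and 6 had both and 58 and 14 neither. *Calb2* was at 107 CPM (98.2 to 117) in control males, 82.2 CPM (68.1 to 98.5) in control females, 105 CPM (88.9 to 123) in knockout males and 228 CPM (202 to 256) in knockout females. The knockout females lay above the others, whose intervals overlapped. The genotype ratio was 0.978 (0.809 to 1.18) in males and 2.77 (2.22 to 3.46) in females. The ratio of females to males was 0.766 (0.621 to 0.938) for the control and 2.17 (1.77 to 2.66) for the knockout.

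The excess was seen in both subsets. Where the respiratory share was low, *Calb2* was at 57.7, 51.8, 64.1 and 105 CPM in control males, control females, knockout males and knockout females, and a UMI of it was found in 23.6%, 21.7%, 26.7% and 40.7% of barcodes. Where it was high, the levels were 395, 324, 278 and 1126 CPM. All 9 knockout female barcodes of this subset had a *Calb2* UMI, against 11 of 22 knockout male ones. The 7 GABAergic markers, which mark interneurons, of which some contain calretinin, had 0 UMIs in knockout barcodes with a high share and 24 UMIs (10.3 CPM) in those with a low share, against 1 and 74 UMIs (13.1 CPM) in the control. Their part in the low-share values was not tested. The knockout females were 2 mice and the control female 1 mouse, so sex, mouse and genotype cannot be told apart.

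The other genes were compared in the same way. *Calm2* was at a genotype ratio of 1.05 (0.974 to 1.14) in males and 0.987 (0.887 to 1.1) in females, and *Calm3* at 0.994 (0.821 to 1.20) and 0.851 (0.655 to 1.1). *Pcp4* was at 0.858 (0.781 to 0.941) and 1.03 (0.910 to 1.17). *Hpca* was above 1 in both, at 1.71 (1.13 to 2.53) and 1.43 (0.733 to 2.83). *Calb1* was at 0.626 (0.254 to 1.35) and 1.6 (0.685 to 3.84), and *Ncald* at 1.56 (0.620 to 3.61) and 3.12 (0.749 to 18.3). With 3 to 42 UMIs in a group, these 2 genes cannot be placed. In barcodes with a high respiratory share, *Pcp4* was at 1374 CPM (1239 to 1520) in knockout males, below the 1940 CPM (1838 to 2047) of control males and the 1701 and 1905 CPM of control and knockout females.

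**Figure D5:**
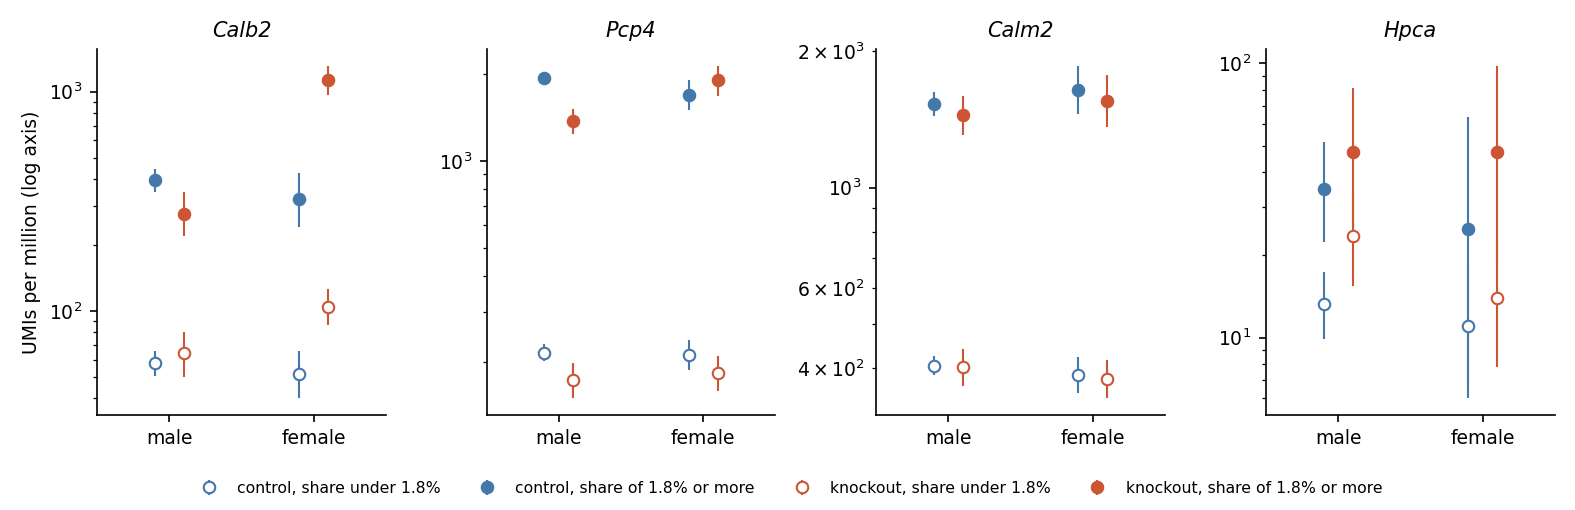
CPM on log axes of 4 of the genes in barcodes read as male or female, by library and respiratory share, with exact 95% counting intervals. *Calb2* in knockout females lies above the other groups at either share (105 and 1126 CPM), while *Calm2* lies at like levels in both sexes and libraries.

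Related genes were taken by list to place the 9 among other calcium proteins. Shares of all genes for comparison are 24.6% higher and 27.7% lower in the control and 21.7% and 25.4% in the knockout. They cover genes with at least 100 UMIs, whereas the counts per list also take genes with fewer. Of 12 genes for calmodulin-binding and calcineurin proteins, 7 were at least 1.5-fold higher in control barcodes with a high respiratory share and 1 was lower, with a median ratio of 1.88 against 0.896 over all genes. The highest were *Marcksl1* at 6.76, *Basp1* at 4.28 and *Gap43* at 3.63, membrane-associated proteins of growing neurites, and the lowest were *Camta1* at 0.933, *Ppp3ca* at 0.846 and *Rcan1* at 0.548. In the knockout, 7 of 12 were higher and 0 lower, and *Basp1* and *Gap43* were at 4.25 and 4.0.

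Small EF-hand proteins and sensors were mixed. Of 18 other EF-hand genes, 10 had a ratio in the control, with 4 higher and 2 lower, and 7 in the knockout, with 3 higher and 1 lower. Only 4 of them had 100 UMIs in the control, with a median of 2.05: *S100b* at 3.18, *Efhd2* at 3.11, *Efhd1* at 1.00 and *Caln1* at 0.442. In the knockout *S100b* was at 7.96. Of 9 neuronal calcium sensors related to *Hpca*, 7 had a ratio, with 3 higher and 2 lower in the control and 3 higher and 1 lower in the knockout. *Kcnip2* was at 2.38 and 1.85, *Vsnl1* at 1.63 and 1.62, *Ncs1* at 1.33 in both libraries, *Kcnip4* at 0.530 and 0.586, and *Kcnip1* at 0.622 and 1.05.

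Genes for calcium transport and storage were not higher as groups. Of 9 calcium pumps and exchangers, 0 were higher and 7 lower in the control (median 0.614 over 7 genes with at least 100 UMIs), and 0 higher and 2 lower of 8 with a ratio in the knockout (0.798 over 6), where the share of lower genes was near that of all genes. In the control the highest with 100 UMIs were *Atp2b1* at 0.701, *Atp2a2* at 0.632 and *Slc8a1* at 0.619, and the lowest *Slc24a2* at 0.609, *Atp2b3* at 0.582 and *Slc8a3* at 0.394. *Slc8a3* was at 1.08 in the knockout. Of 8 calcium proteins of the secretory pathway, 1 was higher and 2 lower in the control and 1 higher and 1 lower in the knockout, near the shares of all genes or below them. With 100 UMIs or more, *Sdf4*, *Canx* and *Rcn2* were highest in the control at 1.19, 0.893 and 0.785, and *Calr*, *Calu* and *Nucb1* lowest at 0.689, 0.663 and 0.485.

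Between genotypes, 4.40% of all genes were past 1.5-fold in *Reln* barcodes. None of the 12 calmodulin-binding and calcineurin genes was, with *Rcan1*, an inhibitor of calcineurin, highest at 1.42 (1.14 to 1.76) and *Marcksl1* lowest at 0.734 (0.556 to 0.960). None of the 7 neuronal calcium sensors with a ratio was past it, and their ratios with 100 UMIs or more ran from 0.827 for *Vsnl1* to 1.37 for *Kcnip1*. Of the 10 other EF-hand genes with a ratio, 4 were higher and 2 lower. *S100b* was at 1.84 (1.46 to 2.32), the other 5 past the fold had under 100 UMIs, and *Efhd2* was lowest at 0.720 among those with more. Of 9 pumps and exchangers 1 was lower, and of 8 secretory pathway proteins 1 was higher.

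The genes whose log2 CPM (after adding 1) was most like that of *Pcp4* over the 6 sets of barcodes (3 per library), among 9442 genes, were *Chchd2*, *Uqcc2* and *Cox6b1*, with distances of 0.210, 0.273 and 0.295 after centring. *Cox6b1*, a subunit of cytochrome oxidase, was itself used to form the subsets. For *Calb2* they were *Sap18b*, *Ndufaf8* and *Ap2s1* (0.298, 0.318 and 0.470). *Ndufaf8* was also among the genes used to form the subsets. The cell barcodes were split by the respiratory share, and free RNA had a still higher one. Likeness of genes with a large ratio to respiratory genes was thus built into the choice of sets and is no separate result. *Chchd2*, which encodes a mitochondrial protein, was at 1269, 155 and 2581 CPM in the control in barcodes with a high share, a low share and free RNA, beside 1854, 216 and 3282 CPM of *Pcp4*.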

How the data were processed

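Hippocampal CR cells were measured by droplet-based 3′ single-cell RNA-sequencing in 1 control and 1 knockout library of 4 pooled mice each. The authors deposited unnormalized UMI counts, as a matrix of genes by every barcode with no cell calling. The sources differ on the upstream steps. The header of the matrices names Cell Ranger 4, and the submitters' processing notes list Cell Ranger 8.0.1 and mm39. The methods of the study name another version of Cell Ranger and an mm10 reference. Whether intronic reads were included and how strand was used is not given in the sources used here. Positions come from the GENCODE M21 annotation of GRCm38, matched by identifier, in which 32235 of 32285 identifiers and all 9 genes were found, and no count was taken by position.

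*Reln* barcodes were those with at least 2000 UMIs and 5 *Reln* UMIs. CPM were taken over all UMIs outside 192 mitochondrially encoded and ribosomal protein genes. The respiratory share was the percent of these UMIs from 98 nuclear genes of the respiratory chain, split at 1.8%. Ratios have exact conditional Poisson intervals and shares exact Clopper-Pearson intervals, both at 95% and for counting error only. As each genotype is 1 library, no test was made and no p-value is given. Counts use ratios of 1.5-fold or more among genes with over 3 UMIs in a group, and all-gene values use genes with at least 100 UMIs over both groups. A group without a UMI was set to 3 UMIs, and no ratio was given where this left the direction unknown. Thinning drew 2000 UMIs per barcode without replacement. Doublets were not removed in the main analysis. In an alternative, Scrublet (scanpy 1.11.5) took out 8 control and 1 knockout barcodes. The members, lists and thresholds were chosen with earlier results of these data known. The named genes are all members, the 3 highest and 3 lowest ratios of each related list and the 3 genes most like *Pcp4* and *Calb2*. For the lists, naming was limited after the values were seen to genes with at least 100 UMIs in the control comparison by respiratory share. Other list values were chosen after they were seen.

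The ratio step was tested on simulated counts with 200 changed genes. The counts were drawn with Poisson error only, the error that the intervals assume, so coverage near 95% was built in. Spread between barcodes, mice or libraries was not simulated, so the values below check the calculation and do not describe the real data. For the comparison of genotypes (21129 genes drawn), 95% of changed and 95.8% of 9242 unchanged genes had an interval with the true ratio, and 0.812% of unchanged genes passed 1.5-fold. For the comparison by respiratory share in the control (20294 genes), 98.5% of changed and 95.8% of 8104 unchanged genes did, and 3.96% of unchanged genes passed. Alternatives covered depth, *Reln* and share thresholds, scaling, doublets, free RNA, sex, single barcodes and the fold. Calculations used Python 3.11.15, numpy 2.4.6, scipy 1.17.1 and pandas 2.3.3. No protein sequences were used here, and 1 related gene is not reported here.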

Additional observations from a re-analysis of the deposited data

Results flagged for a closer look

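*Calb2* had genotype ratios that pointed in opposite directions in barcodes of the sexes, at 0.978 (0.809 to 1.18) in males and 2.77 (2.22 to 3.46) in females, and its value in all barcodes, 1.54, lay between them. *Pcp4* was at 0.858 in males and 1.03 in females, *Calm2* at 1.05 and 0.987, and *Calb1* at 0.626 and 1.6 (8 and 15 knockout UMIs). Of these ratios, *Calb2* in females and *Pcp4* in males had intervals without 1, and the differences between the sexes were not tested.

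*Ncald* had ratios of high to low respiratory share on opposite sides of 1, at 0.571 in the control and 1.16 in the knockout, from 2 and 3 UMIs in the high subset. The difference was not tested, and both intervals include 1.

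The barcodes with at least 2000 UMIs and under 5 *Reln* UMIs, 8 in the control and 16 in the knockout, entered no comparison. They held *Pcp4l1* at 735 CPM (484 to 1069) in the control and 380 CPM (225 to 600.4) in the knockout, against 0.454 and 1.08 CPM in *Reln* barcodes. *Pcp4l1* was in 3 and 5 of these barcodes, with 18 of its 27 control UMIs in a single one. Their list of ependymal and choroid markers stood at 98631 and 65403 CPM, with all 4 markers counted. Only 4 of the 8 control and 6 of the 16 knockout barcodes held 3 or more UMIs of this list. The astrocyte list stood at 1116 and 2828 CPM, and the mural list at 0 and 1182 CPM, so the set was mixed. *Calm3* was at 1061 CPM in the control (39 UMIs, of which 16 in a single barcode) against 422 CPM in the knockout, which overlapped free RNA, *Ncald* at 109 and 127 CPM (4 and 6 UMIs), and *Nrgn* at 84.4 CPM in the knockout (4 UMIs). *Calb1* and *Hpca* had 0 UMIs in both, with upper limits of 100.4 and 77.9 CPM. The intervals of *Pcp4l1*, of control *Calm3*, of *Ncald* and of knockout *Nrgn* lay above those of *Reln* barcodes and of free RNA, which is why they are given here.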

How the results depend on the processing

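Of 170 alternative counts of members past the fold, 141 were within 1.5 times the value reported and 29 were not. The 4 genes apart between genotypes in all *Reln* barcodes became 2 without barcodes over 15000 UMIs or after thinning, and 1 from 8000 UMIs, without the barcode highest in the gene, at a fold of 2, or without barcodes holding 3 or more UMIs of other cell types' markers (an alternative chosen after seeing the data). The 1 gene apart at a low respiratory share became 0 at a fold of 2. It became 2 with at least 1 *Reln* UMI, a split at 2.2%, means of single barcodes, without barcodes over 15000 UMIs, without the highest barcode, with the mean droplet subtracted, without barcodes of other markers, or with free RNA subtracted at the single-gene bound (also chosen later). It became 3 with a split at 1.5%, in female barcodes, after thinning or at a fold of 1.25, and 5 with free RNA subtracted at the marker bound. The 1 gene lower at a high share in the control (*Ncald*) became 0 with a split at 2.2%, without barcodes over 15000 UMIs, from 8000 UMIs, in either sex, after thinning and at a fold of 2. The 0 in the knockout became 1 without the highest barcode. The 7 genes higher in free RNA in the control became 4 of 4 with a ratio over the 721 barcodes of 20 to 50 UMIs. The causes were not tested.

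Of 843 alternative ratios of single genes, 728 stayed within their interval and 111 moved past it. A further 4, of ratios past 1.5-fold, crossed 1. *Calb2* fell to 0.978 between genotypes in male barcodes, and *Ncald* to 0.260 at a low share after thinning. For high against low share in the control, *Calb1* turned to 0.965 in male barcodes and *Ncald* to 1.06 without barcodes over 15000 UMIs. Counting ratios within 1.5-fold too, 33 alternatives over 14 ratios lay on the other side of 1. Of the 30 ratios with an interval on 1 side of 1, these were *Calb2* and *Pcp4* between genotypes, with *Pcp4* at 1.03 in female barcodes, 1.28 with the marker bound and 1.27 with the single-gene bound, and *Pcp4* at the low share with the marker bound. *Pcp4* stayed above 7 in both libraries in every alternative for the respiratory share, with a lowest ratio of 7.73 for the control and 7.27 for the knockout, but the marker bound left none at a low share in the control. *Pcp4* in free RNA was 3.71 times its level in cells over control barcodes of 20 to 50 UMIs. No paired analysis was possible because each genotype is 1 library. Counts under about 20 UMIs limit *Calb1*, *Ncald*, *Nrgn* and *Pcp4l1*.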
